A study of Mus musculus with 6 samples.

Results

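The 10 genes described here carry sterol out of mouse cells, store it or release it from lysosomes. They encode the liver X receptors (Nr1h3 for LXR alpha and Nr1h2 for LXR beta), the exporters Abca1, Abcg1, Abcg5 and Abcg8, the esterifying enzyme Soat1, and the lysosomal proteins Npc1, Npc2 and Lipa. They were taken by symbol from a table of 34745 genes, in which each symbol had 1 row. Bulk RNA was read in 6 subcutaneous tumours of C57BL/6J hosts: 3 tumours from a high cholesterol diet (HCD) and 3 from a normal diet (ND). The mice of both diets had been injected in the right flank with cells labelled B16F10, a mouse melanoma line that had been cultured with serum beforehand. Age, sex, the composition of the diets and the weeks of feeding are not given in the sources used here. Nothing in the labels says whether the numbered tumours of a diet came from separate animals, so a p-value covers the spread among these tumours, which may be technical.

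LXRs are nuclear receptors that bind oxysterols, pair with a retinoid X receptor and switch on genes of sterol export when cell sterol is high. Abca1 and Abcg1 then pass cholesterol to lipoproteins, and in macrophages, which take up much sterol, both are well-known LXR targets. Sterol that arrives in lipoproteins is freed in lysosomes by the acid lipase of Lipa, handed by Npc2 to Npc1 and moved out to other membranes, where the enzyme of Soat1 can turn any surplus into esters for storage.

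Library totals ran from 20351637 to 20918324 counts in HCD and from 20622727 to 26228074 in ND tumours, and 15539 genes passed the filter on low counts and were tested. The labelled cell type was not borne out by its markers. Of 10 pigment cell markers, Tyr, Dct, Mlana and Oca2 had 0 counts in all 6 libraries, and the summed level of the list was 7.55 to 12.7 CPM (counts scaled to the library total) in HCD and 5.81 to 9.08 CPM in ND tumours. Of 14 hepatocyte markers, 11 passed the filter on low counts. Together the 14 summed to 6728 to 8893 CPM in HCD and 7047 to 8475 CPM in ND tumours. Some libraries stood apart in other cell markers. Macrophage and monocyte markers, none of them at 0 throughout, summed to 1082, 1806 and 856.9 CPM in HCD 1 to HCD 3 and to 598.3, 1162 and 1004 CPM in ND 1 to ND 3. Skeletal muscle markers summed to 2053 CPM in HCD 1 and 1965 CPM in ND 2, against 11.5 to 220.4 CPM in the other 4 libraries.

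Of the 10 genes, 8 were tested and 0 passed an adjusted p of 0.05 in either direction (edgeR quasi-likelihood test with Benjamini-Hochberg adjustment over all tested genes). Among all 15539 genes tested, none (0%) passed in either direction, and the smallest adjusted p was 0.839. None (0) of the 8 genes had an unadjusted p under 0.05, where 5.30% of all tested genes did (1.81% higher and 3.48% lower in HCD tumours). The DESeq2 Wald test, limma-voom and limma on log2(FPKM + 1) also passed 0 of these 8 genes. The 8 genes had a median log2 fold change of 0.25, with 6 positive and 2 negative, while all tested genes had a median of 0.0133 and 53.0% positive. For none of the 8 did the diets separate: in each, the range of the 3 HCD libraries overlapped that of the 3 ND libraries. Over all tested genes the 3 HCD libraries lay above the 3 ND libraries for 4.74% and below them for 6.36%.

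**Figure D1:**
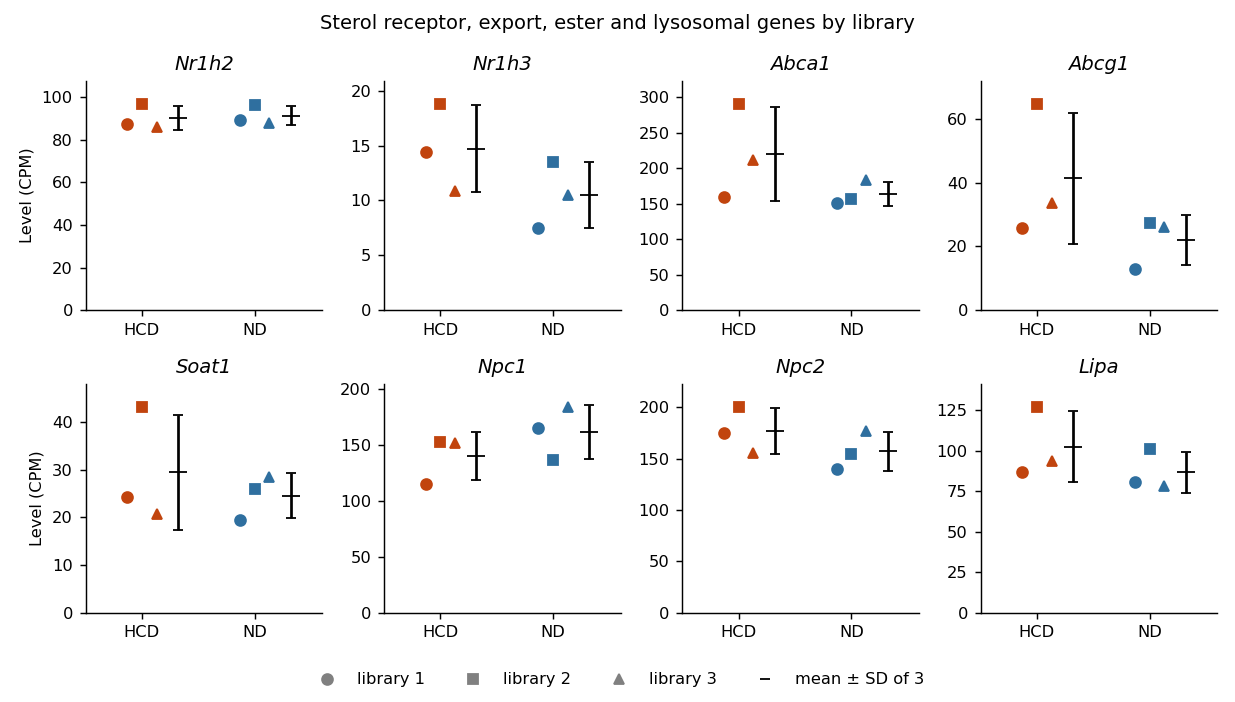
Level of each of the 8 tested genes in CPM (vertical axes from 0), with a point for each library and the mean ± SD of the 3 libraries of a diet. HCD 2 (square) was the highest library for 7 of the 8 genes, and the diets overlap in every panel.

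The gene of LXR beta, Nr1h2 (ENSMUSG00000060601, mm10 chromosome 7, 44549616 to 44553951, minus strand), varied least of all the genes in the group. It had 87.5, 96.7 and 86.1 CPM in HCD 1 to HCD 3 and 89.3, 96.4 and 87.9 CPM in ND 1 to ND 3. Both diets held the same narrow band, and the coefficient of variation over the 6 libraries was 5.18%. The log2 fold change was -0.02 ± 0.07 SE, with a 95% interval of -0.19 to 0.15 and an edgeR adjusted p of 0.963. That interval leaves room for a difference of either sign up to its bounds.

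LXR alpha, encoded by Nr1h3 (ENSMUSG00000002108, chromosome 2, 91184061 to 91202834, minus strand), is the form that is abundant in macrophages and liver. Its level was 14.4, 18.8 and 10.9 CPM in HCD 1 to HCD 3 and 7.50, 13.5 and 10.5 CPM in ND 1 to ND 3. HCD 2 was highest and ND 1 lowest, and ND 2 lay above HCD 3. The log2 fold change was 0.48 ± 0.27 SE (95% interval -0.17 to 1.12, edgeR adjusted p = 0.839). It was 0.27 without HCD 2 and 0.07 without both HCD 2 and ND 1. In bulk tissue, fewer cells of a type and less RNA per cell cannot be told apart, which holds for every gene here. The balance of the receptors differed between libraries: by deposited FPKM (counts scaled to gene length and library total), Nr1h2 was 3.62, 3.06 and 4.72 times Nr1h3 in HCD 1 to HCD 3 and 7.09, 4.24 and 4.97 times Nr1h3 in ND 1 to ND 3. These ratios overlap between the diets, and their size depends on the gene length used, as given with the levels below.

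Abca1 encodes the exporter that loads cholesterol and phospholipid on lipid-poor apolipoprotein A-I (ENSMUSG00000015243, chromosome 4, 53030787 to 53159895, minus strand). Its promoter is shown because it is where LXR is known to act on this gene through a DR4 element, a repeat of receptor half-sites set 4 bases apart. The RefSeq promoter on GRCm38.p6 (chr4:53159846-53160145, minus strand) runs from 250 bases before the start of the gene to 50 after it. Capitals mark, in order, an E-box (CACGTG) and a match to the core of a DR4 element (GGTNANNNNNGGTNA, searched on both strands), which do not overlap.
Abca1 promoter: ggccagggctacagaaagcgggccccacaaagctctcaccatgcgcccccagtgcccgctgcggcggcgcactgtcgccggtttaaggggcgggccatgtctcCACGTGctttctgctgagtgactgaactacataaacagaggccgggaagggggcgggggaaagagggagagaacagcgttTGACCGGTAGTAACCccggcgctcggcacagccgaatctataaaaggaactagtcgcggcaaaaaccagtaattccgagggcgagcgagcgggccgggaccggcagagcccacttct

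The DR4 match lies at positions -67 to -53 from the gene start, on the opposite strand. Of 32851 promoters of this length in the table, 0.718% hold this core and 7.15% hold the E-box, while the full repeat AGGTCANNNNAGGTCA is in 0.0152% and not in this window. Promoters of Abcg1 and Npc1 were not among those searched, so nothing is said of them. Among the 10 promoters searched for the other 8 group members, Abca1 had the only DR4 core. Of the 12 genes searched in a list of other LXR targets, Srebf1 and Fasn also held it. Read along the motif, the matches in these promoters are as follows.
Abca1 site, chromosome 4: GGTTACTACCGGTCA
Fasn site, chromosome 11: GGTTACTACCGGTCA
Srebf1 site, chromosome 11: GGTTACTGGCGGTCA
Abca1 and Fasn share the same letters. A match is a description of the sequence, and binding was not measured. Their values were not tested against each other: Fasn, which encodes fatty acid synthase, was at 0.07 ± 0.10 SE on the log2 scale, Srebf1, a regulator of lipid synthesis, at 0.05 ± 0.07 SE and Abca1 at 0.43 ± 0.21 SE, and none of the 3 passed.

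Abca1 itself had 159.1, 290.6 and 211.2 CPM in HCD 1 to HCD 3 and 151.6, 156.4 and 183.4 CPM in ND 1 to ND 3. HCD 2 and HCD 3 lay above every ND library, while HCD 1 lay below ND 3. The means were 220.3 ± 66.2 CPM in HCD and 163.8 ± 17.1 CPM in ND tumours (SD, n = 3 each), a 1.35-fold difference with a 95% interval on the log2 scale of -0.06 to 0.92 and an edgeR adjusted p of 0.839. Without HCD 2 the log2 fold change was 0.18, and without HCD 2 and ND 1 it was 0.12. Leaving out HCD 1 and ND 2, the libraries with the highest skeletal muscle markers (HCD 2, at 220.4 CPM summed, came next and was kept), it was 0.59 ± 0.18 SE, with an edgeR adjusted p of 0.747.

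Abcg1 encodes the exporter that passes sterol to mature high density lipoprotein (ENSMUSG00000024030, chromosome 17, 31057675 to 31117988, plus strand), and it varied most. It had 25.9, 64.7 and 33.6 CPM in HCD 1 to HCD 3 and 12.9, 27.2 and 26.0 CPM in ND 1 to ND 3. The extremes were HCD 2 and ND 1, a 5.19-fold span, and HCD 1 lay below ND 2 and ND 3. The means were 41.4 ± 20.5 CPM in HCD and 22.0 ± 7.92 CPM in ND tumours (SD, n = 3 each). This gave the greatest log2 fold change of the group, 0.91 ± 0.40 SE (95% interval -0.05 to 1.87, edgeR adjusted p = 0.839), or 1.88-fold. Without HCD 2 it was 0.44, without HCD 2 and ND 1 it was 0.16, and without HCD 1 and ND 2 it was 1.35 with an edgeR adjusted p of 0.747. Abca1 per length was 2.44, 1.79 and 2.50 times Abcg1 in HCD 1 to HCD 3 and 4.67, 2.29 and 2.81 times in ND 1 to ND 3 by deposited FPKM. With the annotated exon length, given below, the ratios were 4.32, 3.16 and 4.43 in HCD 1 to HCD 3. In ND 1 to ND 3 they were 8.27, 4.05 and 4.97. ND 1, where Abcg1 was lowest, had the highest ratio by either length.

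The sterol half-transporters Abcg5 and Abcg8, which pair to export sterol into bile and gut lumen, had 0 counts in all 6 libraries. The genes lie beside each other on chromosome 17 (Abcg5, ENSMUSG00000040505, 84658234 to 84683011, minus strand, and Abcg8, ENSMUSG00000024254, 84676302 to 84700333, plus strand) and share 82 bases of exon. With 131411022 counts in all, 0 counts leave room for a level up to an upper 95% bound of 0.0228 CPM for either gene. That bound is 0.143 to 0.147 CPM in an HCD and 0.114 to 0.145 CPM in an ND library (3 counts, counting error only). Both are LXR targets of liver and intestine. Alb, the albumin gene of hepatocytes, averaged 3678 ± 696.6 CPM in HCD and 3543 ± 451 CPM in ND tumours (SD, n = 3 each) in the same libraries. Enterocyte markers summed to 193.6 to 281.7 CPM in HCD and 238.7 to 281.2 CPM in ND tumours, of which Vil1, also known from other epithelia, averaged 236.9 CPM in HCD and 250.6 CPM in ND tumours, and Apoa4 had 0 counts.

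Soat1, which encodes the enzyme that esterifies cholesterol for storage in droplets (ENSMUSG00000026600, chromosome 1, 156424525 to 156474331, minus strand), had 24.3, 43.2 and 20.8 CPM in HCD 1 to HCD 3. In ND 1 to ND 3 it had 19.4, 25.9 and 28.4 CPM. HCD 2 lay far above the other 5 libraries, and HCD 3 lay below ND 2 and ND 3. The log2 fold change of 0.26 ± 0.29 SE (95% interval -0.42 to 0.94, edgeR adjusted p = 0.873) rested on HCD 2, without which it was -0.12.

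Npc1 encodes the lysosomal membrane protein that moves freed cholesterol out (ENSMUSG00000024413, chromosome 18, 12189692 to 12236400, minus strand). Its level was 115.0, 152.5 and 151.4 CPM in HCD 1 to HCD 3 and 165.0, 136.1 and 184.0 CPM in ND 1 to ND 3. ND 3 and ND 1 were the highest libraries and HCD 1 the lowest, so that Npc1, with Nr1h2, had a negative log2 fold change: -0.21 ± 0.15 SE (95% interval -0.56 to 0.14, edgeR adjusted p = 0.842). Without HCD 1 it was -0.09, and without ND 2 it was -0.32. Of the annotated exon bases of Npc1, 4.52% also belong to Rmc1 on the other strand, which averaged 45.3 CPM. Since the strand setting of the counting is not given in the sources used here, reads from these bases may have been counted for either gene or left out.

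Npc2 encodes the soluble carrier that hands cholesterol to Npc1 (ENSMUSG00000021242, chromosome 12, 84754562 to 84773152, minus strand). It had 174.8, 200.8 and 155.7 CPM in HCD 1 to HCD 3 and 139.8, 154.7 and 176.7 CPM in ND 1 to ND 3. The libraries of the diets interleave: ND 3 lay above HCD 1 and HCD 3. The log2 fold change was 0.17 ± 0.12 SE (95% interval -0.11 to 0.46, edgeR adjusted p = 0.842), and 0.08 without HCD 2. Npc2 and Npc1, which act on the same cholesterol in turn, had fold changes of unlike sign, and their deposited FPKM ratio was 7.30, 6.33 and 4.94 in HCD 1 to HCD 3 and 4.07, 5.46 and 4.61 in ND 1 to ND 3. The size of this ratio too depends on the gene length used.

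Lipa encodes the acid lipase that frees cholesterol from its esters in the lysosome (ENSMUSG00000024781, chromosome 19, 34492318 to 34527474, minus strand). It had 86.7, 127.3 and 93.8 CPM in HCD 1 to HCD 3 and 80.8, 101.1 and 78.0 CPM in ND 1 to ND 3. HCD 2 was highest, and ND 2 came above HCD 1 and HCD 3. The log2 fold change was 0.24 ± 0.17 SE (95% interval -0.15 to 0.64, edgeR adjusted p = 0.841). It was 0.06 without HCD 2, 0.37 without ND 2, and 0.48 without HCD 1 and ND 2, with an edgeR adjusted p of 0.747.

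**Figure D2:**
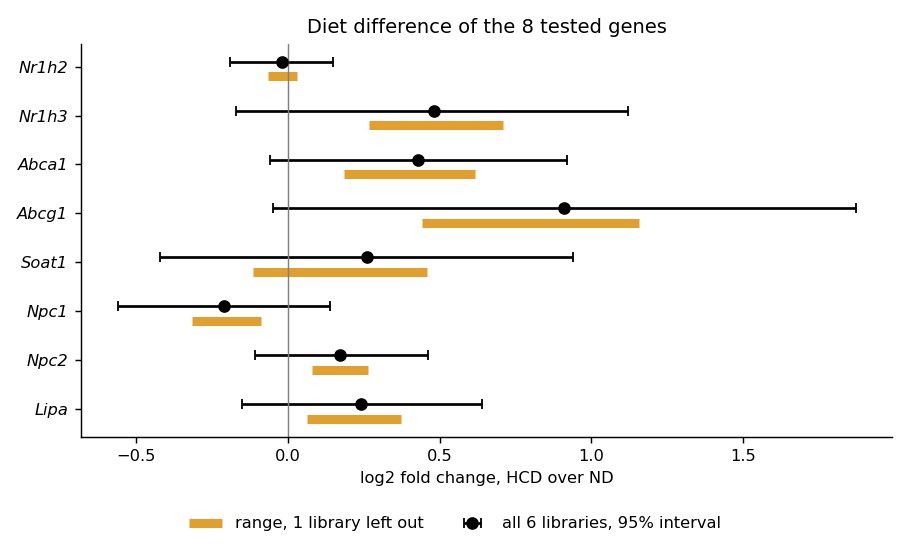
Log2 fold change of HCD over ND for the 8 tested genes (horizontal axis), with the 95% interval of the edgeR fit of all 6 libraries (black) and the range of the 6 fits that each leave out 1 library (bar). Every 95% interval crosses 0, and the bars of Nr1h2 and Soat1 cross 0 as well.

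Library HCD 2 was the highest of the 6 in CPM for 7 of the 8 genes, all but Npc1, and for 23.0% of all tested genes. ND 1 was the lowest for 5 of the 8 genes and for 22.8% of all tested genes. On the log2 scale, HCD 2 lay above the mean of the 6 libraries by 1.19 for Abcg1, 0.728 for Soat1, 0.638 for Abca1, 0.633 for Nr1h3 and 0.449 for Lipa. The macrophage marker score, a mean of the same kind over 16 markers, was 0.80 in HCD 2 and -0.47 in ND 1, also the highest and lowest of the 6. In the other libraries it was -0.13 in HCD 1, -0.29 in HCD 3, 0.14 in ND 2 and -0.04 in ND 3. T cell markers were also highest in HCD 2, at 178.6 CPM summed, and lowest in ND 1, at 23.8 CPM. Adipocyte markers were highest in HCD 2 too, at 143.1 CPM summed, but lowest in HCD 3, at 92.0 CPM. By a score like that of the macrophage markers they were lowest in ND 3, at -1.34, with -0.83 in HCD 3 and -0.78 in ND 1. Neutrophil markers went another way, with 79.8 CPM in HCD 2 and 137.6 CPM in ND 1. The part of these cells in the values of the 8 genes was not tested. HCD 3 had a macrophage score below those of ND 2 and ND 3. It lay above both of these libraries for Abca1 and Abcg1 and below both for Nr1h2 and Soat1. For Nr1h3, Npc1, Npc2 and Lipa it lay between them.

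**Figure D3:**
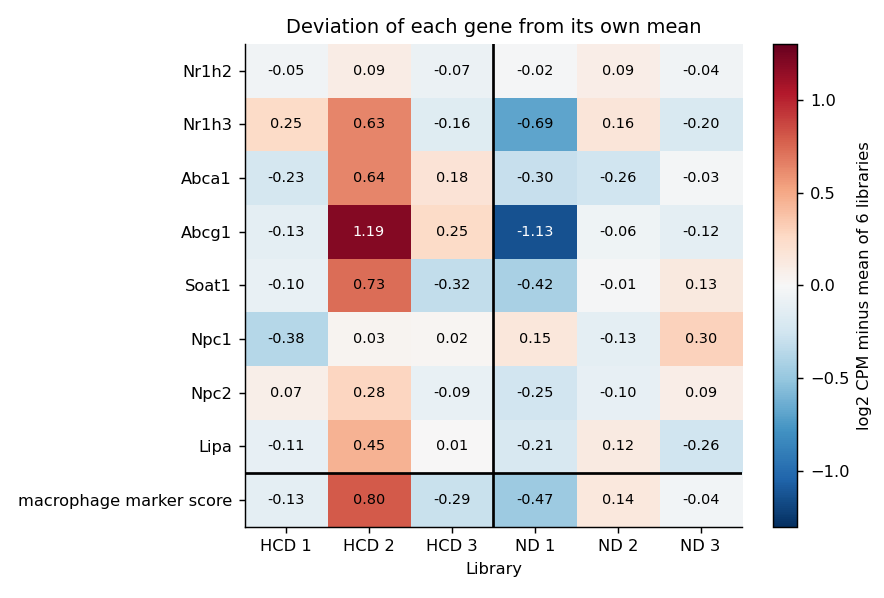
Deviation of log2 CPM from the mean of the 6 libraries for each of the 8 genes (rows) in each library (columns), with the macrophage marker score in the last row. The red column of HCD 2 runs through 7 genes with values from 0.094 for Nr1h2 to 1.19 for Abcg1, while Npc1 has 0.033 there and 0.304 in ND 3.

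Genes with a pattern close to those of the main exporters were picked by the root mean square difference of centred log2 CPM over the 6 libraries, among 12705 named genes that averaged 1 CPM or more. The 5 most like Abca1 were Rasip1, Adgrf5, Stx3, Tagln and Hlx, at differences of 0.0781 to 0.119, where the median gene was at 0.366. The 5 most like Abcg1 were Akr1c14, Cd200r4, Batf, Slc43a2 and Gbp2b, at 0.112 to 0.161, where the median gene was at 0.700. Adgrf5, for example, had 45.8, 88.3 and 58.2 CPM in HCD 1 to HCD 3 and 44.7, 52.7 and 55.5 CPM in ND 1 to ND 3. Within the group itself Lipa was the nearest to Abca1, at 0.217 and rank 255, and Abcg1 was at 0.421 and rank 9184. Nr1h3 was the nearest member to Abcg1, at 0.380 and rank 408. This measure counts the size of a gene's swings as well as their direction. By it, many other genes were nearer to each exporter than the exporters were to each other. Nr1h2, which varied least, was nearer to Abca1 (0.314, rank 2749) than Abcg1 was. Abca1 and Abcg1 were both highest in HCD 2 and lowest in ND 1.

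Levels can be compared between genes only per length, and the length used mattered. The deposited FPKM imply a length of 8700 bases for Nr1h2, whose exons cover 3354 bases of the GENCODE M21 annotation and whose whole gene spans 4336 bases. For Lipa the implied length was 3074 bases against 6780 annotated ones, and for Abca1 it was 10563 against 10363. Among 14148 genes with at least 10 counts in every library, the implied length was above the annotated exon length for 10518 and above the whole gene span for 1167. By deposited FPKM, Npc2 was highest (51.3 ± 7.23, SD, n = 6), ahead of Lipa (30.8 ± 6.18), Abca1 (18.2 ± 5.15), Nr1h2 (10.4 ± 0.641), Npc1 (9.61 ± 1.44), Abcg1 (7.58 ± 4.25), Nr1h3 (2.44 ± 0.785) and Soat1 (2.06 ± 0.677). Neighbours from Nr1h2 to Abcg1, and Nr1h3 and Soat1, differed by less than the larger SD of each pair.

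With the annotated exon length in its place, Npc2 was at 30.8 ± 4.33 and Nr1h2 at 27.0 ± 1.66 FPKM (SD, n = 6), closer than the larger of these SDs. Abca1 followed at 18.5 ± 5.25, Lipa at 14.0 ± 2.80, Npc1 at 13.3 ± 1.99, Nr1h3 at 5.03 ± 1.62, Abcg1 at 4.36 ± 2.44 and Soat1 at 2.77 ± 0.908 FPKM. Nr1h2 thus moved to second place and Lipa to the fourth, while Npc2 and Soat1 were highest and lowest of the 8 under both lengths. On this length Nr1h2 was 4.55, 3.86 and 5.94 times Nr1h3 in HCD 1 to HCD 3 and 8.92, 5.34 and 6.26 times in ND 1 to ND 3. LXR beta was the more abundant receptor RNA in every library by either length. A length is the same for every library, so the fold changes from counts do not depend on it.

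**Figure D4:**
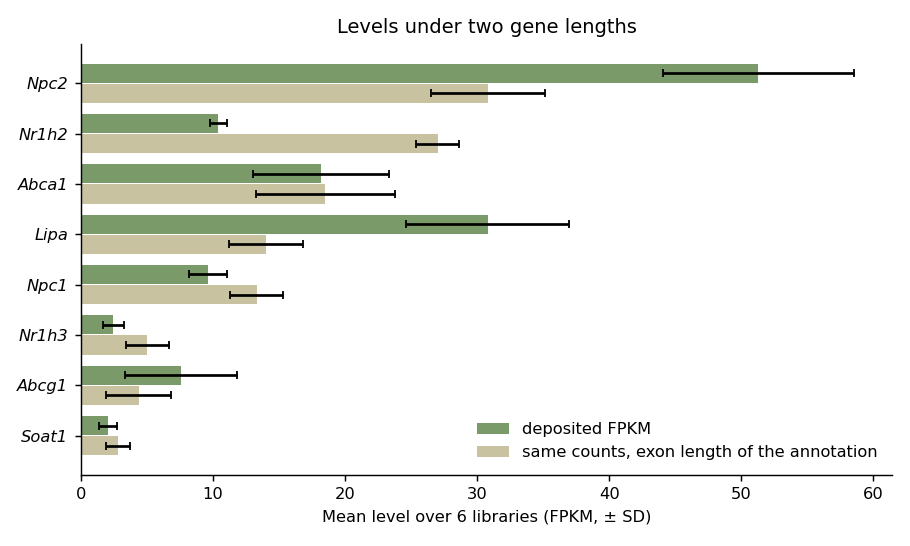
Mean level over the 6 libraries of each of the 8 genes (FPKM, bars from 0, error bars SD), from the deposited FPKM and from the same counts divided by the annotated exon length. Nr1h2 is at 10.4 by the deposited values and 27.0 by exon length, Lipa at 30.8 and 14.0.

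Around the group, 85 other genes of the pathway were listed in 7 sets, of which 79 were tested. With edgeR, 0 of the 79 passed an adjusted p of 0.05, and 49 had a positive and 30 a negative fold change, with a median of 0.06. An unadjusted p under 0.05 was found for 6 higher and 4 lower genes, 12.7% of the 79, where all tested genes gave 5.30%. The lists were chosen with earlier results of these data known, and the difference between these shares was not tested. In 3 of the 79 every HCD library exceeded every ND library, and in 6 every one fell short, where all tested genes gave 4.74% and 6.36%. DESeq2 and limma-voom passed 0 of these genes as well. The rule for naming genes in these sets took the highest FPKM and the smallest p-values of this same edgeR fit. Where a gene was taken for its small p, a separation of the diets is partly fixed by that choice and is not separate evidence.

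Other LXR targets had a median log2 fold change of 0.26, with 13 of 17 tested members positive and 0 past the adjusted threshold. Of all tested genes, 53.0% were positive. The set's mean deviation in log2 CPM was -0.09, 0.36 and 0.16 in HCD 1 to HCD 3. In ND 1 to ND 3 it was -0.37, 0.09 and -0.15, so the diets overlapped, with HCD 2 highest and ND 1 lowest. The summed level was 6750, 6541 and 8488 CPM in HCD 1 to HCD 3. For ND 1 to ND 3 that sum was 8464, 7557 and 7591 CPM. Apoc2, the apolipoprotein that activates lipoprotein lipase, was at 34.6, 37.2 and 48.1 FPKM in HCD 1 to HCD 3 and at 58.3, 61.5 and 56.3 FPKM in ND 1 to ND 3, so all HCD libraries lay below all ND libraries (log2 fold change -0.56 ± 0.14 SE, edgeR adjusted p = 0.839). Lpcat3, a phospholipid remodelling enzyme, stood at 0.26 ± 0.09 SE on the same scale. Apoe, the apolipoprotein gene with the highest FPKM of the set, had 3318 ± 832.3 CPM in HCD and 3883 ± 394.7 CPM in ND tumours (SD, n = 3 each). Apoc2 and Lpcat3 were named by the rule for their small p in this fit. Beyond that rule, Lpl (0.59 ± 0.22 SE) and Mylip (0.49 ± 0.19 SE) completed the set's 4 genes at an unadjusted p under 0.05. Lpl and Mylip too were chosen after their values were seen. The widest positive value was that of the macrophage gene Cd5l, 1.86 ± 0.97 SE, also named after its value was seen.

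Partners and co-regulators of the receptors had a median of -0.02 over 13 tested genes. The coactivator gene Ncoa3 had 118.2 ± 7.70 CPM in HCD and 101.2 ± 7.12 CPM in ND tumours, with all HCD libraries above all ND libraries (SD, n = 3 each). Its log2 fold change was 0.22 ± 0.08 SE, with an edgeR adjusted p of 0.839.

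Enzymes that make or clear oxysterols, the ligands of LXR, had a median of 0.27 over 5 tested genes, and Hsd3b7 had 0 counts in all libraries. The sterol hydroxylase gene Cyp27a1 was at 11.7, 12.1 and 12.3 FPKM in HCD 1 to HCD 3 and at 8.23, 10.1 and 10.6 FPKM in ND 1 to ND 3, without overlap (log2 fold change 0.31 ± 0.11 SE, edgeR adjusted p = 0.839). Ch25h, the hydroxylase gene that makes an LXR ligand in myeloid cells, had a log2 fold change of 0.55 ± 0.32 SE at a mean of 1.76 FPKM.

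Genes of ester formation and hydrolysis had a median of 0.09 over 6 tested genes. The ester hydrolase gene Nceh1 had 4.99, 7.02 and 5.17 FPKM in HCD 1 to HCD 3 and 3.70, 4.88 and 4.07 FPKM in ND 1 to ND 3, without overlap (log2 fold change 0.43 ± 0.16 SE, edgeR adjusted p = 0.839). Plin2, which coats lipid droplets, had 381.0 ± 46.6 CPM in HCD and 390.7 ± 28.9 CPM in ND tumours. Pla2g15, a lysosomal phospholipase gene, differed by 0.16 ± 0.13 SE on the log2 scale. Among lysosomal genes, with a median of 0.11 over 11, Psap, the precursor of the saposins, had 1326 ± 321 CPM in HCD and 933.5 ± 290.1 CPM in ND tumours (SD, n = 3 each). Atp6v0d2, a proton pump subunit gene, differed by 1.10 ± 0.60 SE on that scale, and it was lowest in ND 1, at 0.638 FPKM against 2.60 to 7.56 FPKM elsewhere.

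Sterol carriers had a median of -0.02 over 14 genes. The oxysterol-binding protein genes Osbpl5 and Osbpl2 had log2 fold changes of -0.40 ± 0.12 SE and -0.17 ± 0.07 SE, each with all HCD libraries below all ND libraries and an edgeR adjusted p of 0.839. Tmem97, which binds Npc1, had 60.4 ± 9.54 CPM in HCD and 61.5 ± 2.08 CPM in ND tumours (SD, n = 3 each). Other transporters of the A and G families had a median of 0.09 over 13 genes. Abca6 was the highest of them at 19.8 FPKM, Abca8b differed by -0.17 ± 0.08 SE on the log2 scale, and Abca13, at 0.0389 FPKM, by -0.99 ± 0.59 SE.

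**Figure D5:**
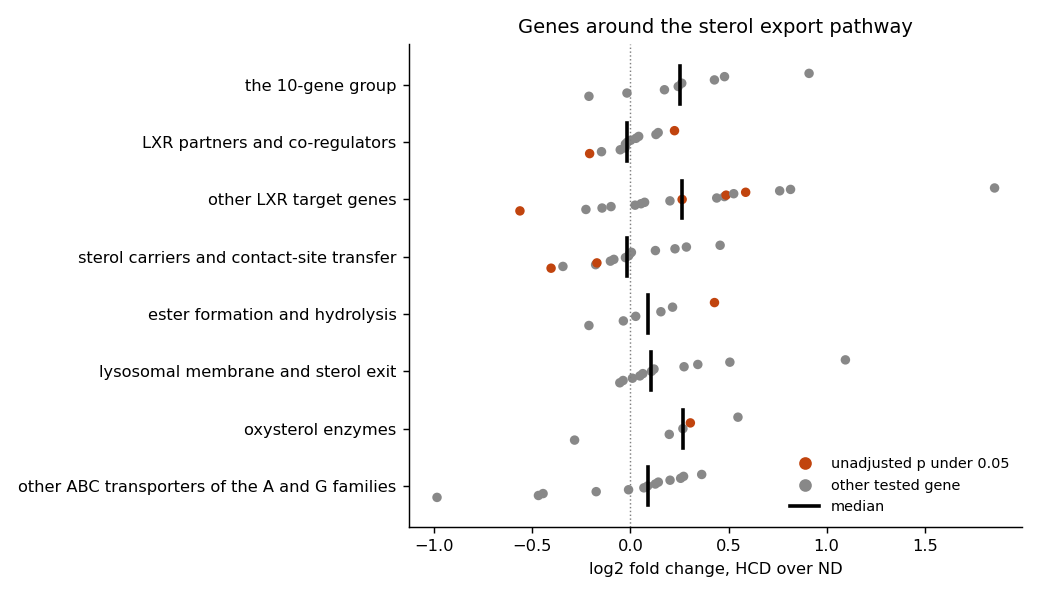
Log2 fold change of HCD over ND for each tested gene (points) in the 10-gene group and the 7 sets around it, with the median of each set as a bar and genes at an unadjusted p under 0.05 in colour. Medians run from -0.02 to 0.27, and the point farthest to the right is Cd5l at 1.86.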

How the data were processed

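Per the labels' protocols, total RNA was made into paired-end TruSeq libraries. The submitters' processing notes name CASAVA 1.8, HTSeq, edgeR, TopHat2 2.0.9 and mm10 without saying what each was used for. Annotation release and strand setting are not stated there. The authors deposited raw read counts and FPKM per gene, 1 column of each for every sample. CPM were computed from the counts with TMM-scaled totals (factors 0.979 to 1.02).

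Diets were compared with the legacy quasi-likelihood test of edgeR 4.0.16 in R 4.3.3 (minimum count 10, minimum total 15, prior count 0.125, all 6 libraries, diet as the only term), after a check on simulated counts. In that check, with the same spread setting for every gene, 80 of 200 genes changed 2-fold were recovered, with 4 false calls. At 4-fold, 190 of 200 were recovered, with 13 false calls. Standard errors were derived from the F statistics. Alternatives used DESeq2 1.42.0 and limma 3.58.1. Libraries of a diet differed by at least 16.9 times the sampling noise (chi-square per gene). Coordinates and exons are from GENCODE M21 on mm10, promoters from RefSeq.

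The 10 genes, lists and tests were chosen with earlier results of these data known. Named genes were all 10, and in each pathway list the gene with the highest FPKM and the 2 with the smallest p, plus the 5 nearest in pattern to Abca1 and to Abcg1. Some genes that this rule takes are not reported here.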

Additional observations from a re-analysis of the deposited data

How the results depend on the processing

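Under the 11 other settings that used all 6 libraries, the 8 tested genes kept the sign of their fold change and none passed an adjusted p of 0.05. Over all genes, the DESeq2 Wald test passed 7 (1 higher and 6 lower in HCD tumours), the other 10 of these settings 0, and the fits without 1 library from 0 to 2, the 2 without ND 2. Those fits passed 0 of the 8 genes and 0 pathway genes. The count of all genes at an unadjusted p under 0.05 was 378 without ND 1, 1353 without ND 2, 525 without ND 3 and 1274 by limma on log2(FPKM + 1) with no filter, against 823. Signs turned for Nr1h2, whose log2 fold change ran from -0.066 to 0.028 over the fits without 1 library, and for Soat1, from -0.12 to 0.46. Pairs of libraries were left out after the data were seen: without HCD 1 and ND 2, Nr1h2 was at 0.051, and without HCD 2 and ND 1, Soat1 was at -0.27 and Npc2 at -0.0042.

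Without a filter on low counts, edgeR gave unadjusted p-values of 0.048 for Abca1 and 0.0319 for Abcg1, and DESeq2 gave 0.0305 for Abca1. The smallest adjusted p of any of the 8 genes under any setting was 0.58, for Nr1h3 without ND 2. With the replicate number as a block, 0 genes passed, and edgeR gave unadjusted p-values of 0.00488 for Abcg1 and 0.0276 for Lipa. Without HCD 1 the unadjusted edgeR p-values were 0.00728 for Abca1 and 0.0259 for Abcg1, and without ND 2 that of Nr1h3 was 0.0431. Without HCD 1 and ND 2 they were 0.0214 for Abca1, 0.0266 for Abcg1 and 0.0255 for Lipa, so that these settings put 1 to 3 of the 8 genes under 0.05, where the fit of all libraries put 0. The numbers were not taken as pairs: deviations of same-numbered libraries correlated at -0.335, 0.154 and 0.073 across genes, and HCD 1 was closest to ND 2 (0.49) and HCD 3 to ND 1 (0.546). With 3 libraries a diet, the 95% intervals given above are the measure of precision for each gene.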
